A study of Homo sapiens with 12 samples.

Results

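GNPDA1, G0S2, TOX2, FAM155B, NAA38 and PLEKHA2 are 6 of the 25141 genes in the count table of an RNA-seq study of HOS cells, a human osteosarcoma cell line. They were chosen from the comparison of siCIN85 with siNeg as genes that responded to CIN85 siRNA with small differences between replicates, and each symbol was matched to 1 Ensembl gene ID through GENCODE. The choice gives no numeric threshold, so no gene just outside it can be named. All 6 were among the 12542 genes that passed the filter on low counts and were tested.

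The study asked how the transcriptome of HOS cells depends on CIN85, the adaptor protein encoded by SH3KBP1, which joins receptor ubiquitination to endocytosis through its SH3 domains. It has 4 groups of 3 libraries. upCIN85 cells carried the pRc/CMV2-Rukl plasmid, in which a CMV promoter drives full-length CIN85, and Mock cells carried the empty vector. Both were pools of geneticin-resistant cells rather than clones. siCIN85 cells were transfected with 3 pooled siRNAs that target CIN85 and siNeg cells with a non-targeting siRNA, so the siRNA arms share a transfection and differ in the siRNA given. The effect of a single siRNA of the pool cannot be told apart from that of the others, and the time between transfection and RNA isolation is not given in the sources used here.

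The 6 genes act in separate processes. GNPDA1, glucosamine-6-phosphate deaminase, returns amino sugar to glycolysis and so runs against the hexosamine pathway, which feeds protein glycosylation. G0S2 is an inhibitor of adipose triglyceride lipase, the enzyme that starts the breakdown of stored fat on lipid droplets. TOX2 is a DNA-binding protein of the HMG-box TOX family. FAM155B, also named NALF2, is a relative of FAM155A, an auxiliary subunit of the sodium leak channel NALCN. NAA38 is an auxiliary subunit of the N-terminal acetyltransferase NatC, whose catalytic subunit is NAA30 and whose scaffold is NAA35. PLEKHA2, or TAPP2, is a pleckstrin homology domain protein that binds the membrane lipid PI(3,4)P2, as does its paralog PLEKHA1.

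On GRCh38 (GENCODE release 29) the genes lie on 6 chromosomes. GNPDA1 (ENSG00000113552) spans chr5:141991749-142013041 on the minus strand and NAA38 (ENSG00000183011) spans chr17:7856685-7885238, also on the minus strand. G0S2 (ENSG00000123689) is at chr1:209675420-209676388, TOX2 (ENSG00000124191) at chr20:43914864-44069616 and FAM155B (ENSG00000130054) at chrX:69505241-69532508, all on the plus strand. The position of PLEKHA2 is given with its counts.

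Promoter windows of RefSeq, on GRCh38.p14, were found for 5 of the 6 genes, each running from 250 bases before to 50 bases after the start. GNPDA1, which was higher in siCIN85, and NAA38, which was lower, are printed because their windows hold the most matches to the 6 short motifs searched. The motifs were chosen after the sequences had been read. Both windows are on the minus strand and are written 5′ to 3′, that of GNPDA1 from chr5:142012978-142013277 and that of NAA38 from chr17:7857510-7857809, which lies inside the GENCODE span of the gene. The capitals mark motif matches.
GNPDA1: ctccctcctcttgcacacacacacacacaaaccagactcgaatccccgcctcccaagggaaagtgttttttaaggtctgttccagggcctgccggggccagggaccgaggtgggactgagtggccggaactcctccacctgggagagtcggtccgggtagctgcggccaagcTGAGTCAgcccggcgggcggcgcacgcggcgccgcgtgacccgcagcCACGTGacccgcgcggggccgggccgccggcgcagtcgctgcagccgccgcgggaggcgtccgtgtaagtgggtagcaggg
NAA38: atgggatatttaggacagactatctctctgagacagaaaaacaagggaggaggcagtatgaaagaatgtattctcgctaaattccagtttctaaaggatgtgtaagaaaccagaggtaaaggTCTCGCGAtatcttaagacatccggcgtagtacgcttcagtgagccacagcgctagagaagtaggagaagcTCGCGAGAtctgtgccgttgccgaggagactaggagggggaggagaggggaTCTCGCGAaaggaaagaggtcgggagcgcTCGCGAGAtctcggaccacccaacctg

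In the GNPDA1 window the capitals are the AP-1 letters TGAGTCA, with their first base at -78 from the start, and the E-box CACGTG at -31. TGACTCA or its reverse complement TGAGTCA occurs in 4.95% of the 35116 promoter windows, CACGTG, which is its own reverse complement, in 7.26%, and both motifs together in 0.302%. In the NAA38 window TCTCGCGA or its reverse complement TCGCGAGA occurs 4 times, at -128, -57, -6 and 24. At least 1 match to these letters was present in 1.15% of all windows, and 4 or more matches in 0.0285%, which is 10 windows. The windows of G0S2 and FAM155B and the TOX2 window at chr20:43915880-43916179 held no match to these motifs or to the other 3 searched on both strands. Those were the CRE letters TGACGTCA (1.85% of windows), the ETS letters CCGGAAGT (4.14%) and the TATA letters TATAAA (11.5%). The other TOX2 window, at chr20:43945646-43945945, held 1 TATA match. A match describes letters in the window only, and no binding was measured here.

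Total counts per library were 5334731 to 5774968 in Mock, 5726535 to 6049458 in upCIN85, 4011368 to 4174860 in siNeg and 3540641 to 3991517 in siCIN85. Levels are given as CPM, counts scaled to a common library size with TMM factors, and differences as log2 fold changes (log2FC) of edgeR's quasi-likelihood fit, with the SE. SH3KBP1, the targeted gene, had 342, 357 and 317 counts in siNeg and 16, 31 and 37 in siCIN85, which left 8.77% of the siNeg level. In the libraries labelled upCIN85 it had 406, 551 and 487 counts against 407, 488 and 416 in Mock (log2FC 0.070, SE 0.16, adjusted P = 0.887 in edgeR). Reads come from the 3′ end of each transcript, and whether transcripts of the plasmid are counted on the gene was not tested. The mesenchymal markers VIM, COL1A1, COL1A2, SPARC and RUNX2 were present in every library, PTPRC had 0 to 1 counts, and EPCAM (85 to 360) and CDH1 (66 to 209) were also detected.

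With CIN85 siRNA, 4 of the 6 genes were higher and 2 were lower, and in each the 3 siCIN85 libraries stood apart from the 3 siNeg libraries. Libraries did not overlap in 20.2% of all genes tested (9.91% higher, 10.2% lower), and 1.04% of genes passed an adjusted P of 0.05 in edgeR (0.59% higher, 0.454% lower). That share is 131 genes, and the count depended on the setting. It was 50 in the fit of 6 libraries, 297 with DESeq2 and 968 with the replicate block. With the block in the siRNA groups only, chosen after seeing the data, it was 429. With 1 library left out it ran from 9 to 362. Since the 6 genes were chosen on this comparison, their values in it are a description without a test. Bulk RNA was measured, so fewer cells that express a gene and less of its RNA per cell cannot be told apart.

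GNPDA1, the amino sugar deaminase, had 1181, 1153 and 990 counts in siNeg replicates 1, 2 and 3 and 2118, 1576 and 1881 counts in siCIN85. The siRNA libraries did not overlap, although the siCIN85 libraries were the less deeply sequenced ones. In CPM the mean was 278 ± 18.9 (SD, n = 3) in siNeg and 489 ± 29.9 (SD, n = 3) in siCIN85, a log2FC of 0.81 (SE 0.092), or 1.76-fold.

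G0S2, the lipase inhibitor, had 87, 69 and 86 counts in siNeg and 261, 146 and 192 counts in siCIN85. The lowest siCIN85 library was above every siNeg library. Its mean was 20.3 ± 3.02 CPM (SD, n = 3) in siNeg and 52.1 ± 10.6 CPM (SD, n = 3) in siCIN85, with a log2FC of 1.36 (SE 0.20), or 2.57-fold.

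TOX2, the HMG-box factor, had 167, 147 and 117 counts in siNeg and 339, 220 and 310 counts in siCIN85. Replicate 2 was the lowest of the siCIN85 libraries and still lay above the siNeg libraries. Its mean was 36.0 ± 5.63 CPM (SD, n = 3) in siNeg and 75.9 ± 10.7 CPM (SD, n = 3) in siCIN85, with a log2FC of 1.08 (SE 0.16), or 2.11-fold.

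FAM155B, the NALCN-associated gene, was the least abundant in reads and had the largest log2FC of the 6. It had 11, 9 and 7 counts in siNeg and 68, 42 and 26 counts in siCIN85. All siCIN85 libraries were above all siNeg libraries, but the siCIN85 libraries spread widely, with replicate 1 highest and replicate 3 lowest. Its means were 2.26 ± 0.466 CPM (SD, n = 3) in siNeg and 11.8 ± 4.83 CPM (SD, n = 3) in siCIN85, with a log2FC of 2.38 (SE 0.38), or 5.21-fold.

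NAA38, the NatC subunit, had 381, 406 and 393 counts in siNeg and 121, 184 and 172 counts in siCIN85. The siNeg libraries lay close together and the siCIN85 libraries did not, replicate 1 being the lowest. Its mean was 98.9 ± 3.58 CPM (SD, n = 3) in siNeg and 42.7 ± 12.2 CPM (SD, n = 3) in siCIN85, with a log2FC of -1.22 (SE 0.16), which is 42.9% of the siNeg level.

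PLEKHA2 (ENSG00000169499, chr8:38901235-38973909 on the plus strand), the PI(3,4)P2-binding protein, had 184, 201 and 159 counts in siNeg and 107, 85 and 99 counts in siCIN85. The groups did not overlap, and in CPM the 3 siCIN85 libraries were nearly equal. Its mean was 45.5 ± 3.88 CPM (SD, n = 3) in siNeg and 25.6 ± 0.856 CPM (SD, n = 3) in siCIN85, with a log2FC of -0.83 (SE 0.14), which is 56.2% of the siNeg level.

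**Figure D1:**
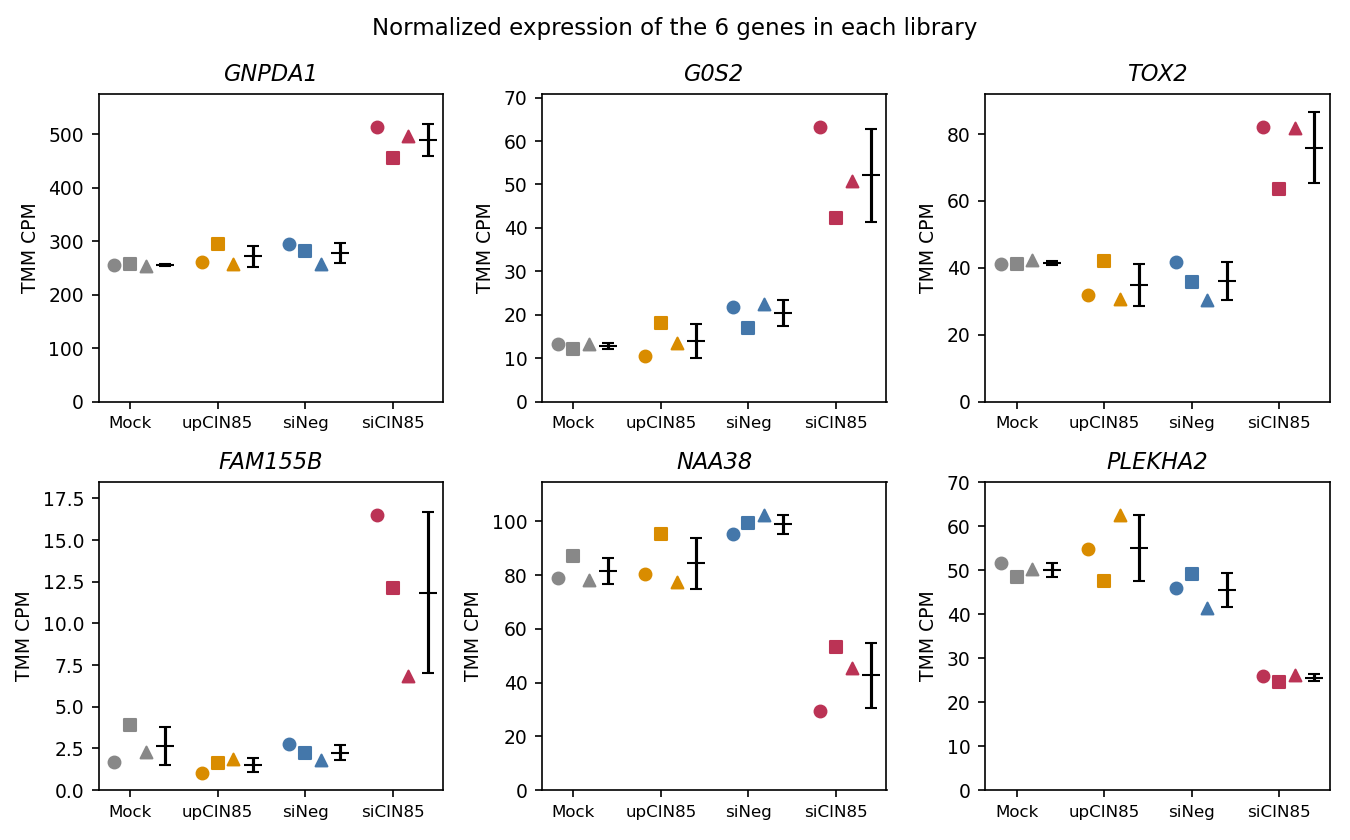
TMM-normalized CPM (vertical axes, linear from 0, one scale per gene) of the 6 genes in the Mock, upCIN85, siNeg and siCIN85 libraries, with circles, squares and triangles for replicates 1, 2 and 3 and bars for the mean and SD of 3 libraries. The siCIN85 libraries of GNPDA1 (456 to 514), G0S2 (42.2 to 63.3), TOX2 (63.6 to 82.3) and FAM155B (6.87 to 16.5) lie above all 9 other libraries, and those of NAA38 (29.4 to 53.2) and PLEKHA2 (24.6 to 26.1) below them. The genes were chosen on siCIN85 against siNeg, and the share of all genes with this pattern was not counted.

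Across the 4 groups, siCIN85 had the highest mean of GNPDA1, G0S2, TOX2 and FAM155B and the lowest mean of NAA38 and PLEKHA2, and in each gene its libraries did not overlap with those of the next group in the order. The genes were chosen on siCIN85 against siNeg, so an end position of siCIN85 partly follows from the choice. The share of all genes with this pattern was not counted. The other groups were hard to rank. For G0S2 the order below siCIN85 was siNeg (20.3 CPM), upCIN85 (14.0) and Mock (12.9), and each neighbouring pair overlapped. TOX2 and FAM155B shared the order siCIN85, Mock, siNeg and upCIN85, with overlap in every pair after the first. NAA38 ran from siNeg (98.9) through upCIN85 (84.4) and Mock (81.4), which overlapped as neighbours, down to siCIN85. PLEKHA2 ran from upCIN85 (55.0) through Mock (50.1) and siNeg (45.5), again with overlapping neighbours. In GNPDA1, siNeg (278) overlapped with upCIN85 (271), and the upCIN85 libraries lay above those of Mock (255). The plasmid and siRNA groups differ in treatment and in library depth, so an order that crosses them also crosses these differences. Whether they were handled together is not given in the sources used here.

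The description of the 6 genes as the strongest responders with low variance held for some of them only. By the size of the log2FC, FAM155B ranked 8 of 12542 genes, G0S2 ranked 109, NAA38 173 and TOX2 254, while PLEKHA2 ranked 517 and GNPDA1 549. By the size relative to its error, as ordered by the edgeR test, the 6 genes ranked between 2 (GNPDA1) and 13 (PLEKHA2), after SH3KBP1 at rank 1. Both scales rank the comparison the genes were chosen on, so a high rank restates the choice. The position of GNPDA1 and PLEKHA2 on the second scale went with their small spread. NAA38 (rank 3) and G0S2 (rank 5) varied more between siCIN85 libraries than the median gene.

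The coefficient of variation (CV, the SD as a percentage of the mean) among the siCIN85 libraries was 3.35% for PLEKHA2 and 6.12% for GNPDA1, against a median of 14.5% over all genes tested. TOX2, at 14.0%, was near that median. G0S2 (20.4%), NAA38 (28.5%) and FAM155B (40.8%) varied more between siCIN85 libraries than the median gene, and FAM155B was at percentile 92.3 of all genes. In siNeg the CV of NAA38 was 3.62%, at percentile 7.26. A single estimate over all 12 libraries, edgeR's gene-wise biological coefficient of variation, lay under the trend for genes of like abundance in 3 of the 6. These were GNPDA1 (8.43% against 10.7%), TOX2 (12.4% against 13.0%) and PLEKHA2 (10.4% against 13.0%). It lay above the trend in G0S2 (15.2% against 14.0%), FAM155B (25.3% against 20.2%) and NAA38 (12.8% against 12.2%).

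Same-numbered siRNA libraries tended to deviate together. The difference within each numbered pair kept its sign in all 3 pairs of all 6 genes, which follows from groups that do not overlap. For replicates 1, 2 and 3 the log2 difference was 0.80, 0.69 and 0.94 in GNPDA1. For G0S2 it was 1.52, 1.30 and 1.16, and for TOX2 it was 0.97, 0.82 and 1.41. The pairs of these 3 genes thus differed by less than the change itself. For FAM155B the pair differences were 2.42, 2.26 and 1.70, for NAA38 they were -1.68, -0.89 and -1.16, and for PLEKHA2 they were -0.81, -0.99 and -0.66.

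siCIN85 replicate 1 held an extreme value in 5 of the 6 genes. It had the highest CPM of GNPDA1 (514), G0S2 (63.3), TOX2 (82.3) and FAM155B (16.5) among the siCIN85 libraries, and the lowest of NAA38 (29.4). The same library had the lowest SH3KBP1, with 3.88 CPM against 8.96 and 9.77 in replicates 2 and 3. PLEKHA2 did not share this order, with 26.0, 24.6 and 26.1 CPM. In a group of 3, any 1 library is often the highest or lowest, and the share over all genes was not counted. With 3 libraries this is an order, not a relation that can be tested.

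Leaving out 1 library at a time kept the direction of all 6 genes, which follows from siRNA groups that do not overlap. The log2FC then ran from 0.75 to 0.85 in GNPDA1, from 1.19 to 1.48 in G0S2 and from 0.96 to 1.19 in TOX2. It ran from 2.05 to 2.65 in FAM155B, from -1.42 to -1.01 in NAA38 and from -0.90 to -0.78 in PLEKHA2. The lowest value of FAM155B and G0S2, and the value of NAA38 nearest 0, were those without siCIN85 replicate 1.

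**Figure D2:**
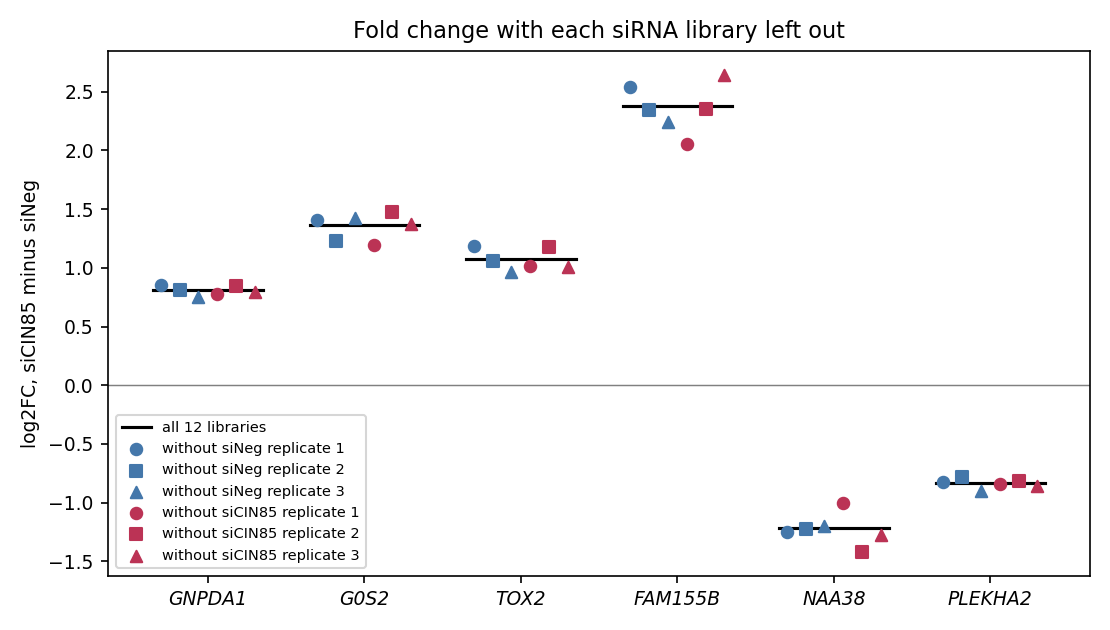
log2FC of siCIN85 minus siNeg (vertical axis) for each of the 6 genes with 1 siRNA library left out at a time (blue for siNeg, red for siCIN85, with the shape giving the replicate), beside the value from all 12 libraries (black line). No point crosses 0, which follows from groups that do not overlap. The points spread most in FAM155B, from 2.05 to 2.65, and in NAA38, from -1.42 to -1.01.

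The comparison of upCIN85 with Mock was not used to choose the genes, and asks whether the plasmid moved them, and in which direction. None of the 6 passed an adjusted P of 0.05 in edgeR's quasi-likelihood test, where 1.23% of all genes tested did, and DESeq2 also called 0. At an unadjusted P under 0.05 the count was 0 of 6, against 14.5% of all genes. The median absolute log2FC was 0.132 over the 6 genes and 0.166 over all genes tested. A count of 0 among 6 genes is near what the background share gives, so it says little on its own, and the intervals below carry the comparison.

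GNPDA1 had 1359, 1513 and 1445 counts in Mock and 1494, 1804 and 1516 in upCIN85. Its upCIN85 libraries (261, 295 and 258 CPM) lay just above those of Mock (256, 257 and 253 CPM), as 1 of the 6 genes without overlap, where 20.7% of all genes had none (9.74% with upCIN85 higher). The log2FC was 0.087 (SE 0.092, 95% interval -0.11 to 0.28, adjusted P = 0.719 in edgeR), in the same direction as with the siRNA.

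G0S2 had 70, 71 and 76 counts in Mock and 60, 111 and 79 in upCIN85. The upCIN85 libraries lay on both sides of Mock, with replicate 2 high. The log2FC was 0.13 (SE 0.21, 95% interval -0.31 to 0.57, adjusted P = 0.829 in edgeR), and it was -0.10 without upCIN85 replicate 2.

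TOX2 had 219, 243 and 241 counts in Mock and 183, 258 and 181 in upCIN85. Replicates 1 and 3 of upCIN85 were below Mock and replicate 2 was not. The log2FC was -0.25 (SE 0.15, 95% interval -0.57 to 0.074, adjusted P = 0.485 in edgeR).

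FAM155B had 9, 23 and 13 counts in Mock and 6, 10 and 11 in upCIN85. At these counts the groups overlapped, and the interval was the widest of the 6. The log2FC was -0.79 (SE 0.44, 95% interval -1.71 to 0.13, adjusted P = 0.429 in edgeR).

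NAA38 had 420, 512 and 446 counts in Mock and 460, 583 and 456 in upCIN85. In CPM, replicate 2 was the highest library in both groups, and the groups overlapped. The log2FC was 0.053 (SE 0.15, 95% interval -0.27 to 0.37, adjusted P = 0.912 in edgeR), and -0.044 without upCIN85 replicate 2.

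PLEKHA2 had 274, 285 and 287 counts in Mock and 314, 291 and 368 in upCIN85. Replicate 2 of upCIN85 was below the Mock libraries in CPM and the other two were above them. The log2FC was 0.13 (SE 0.12, 95% interval -0.12 to 0.39, adjusted P = 0.671 in edgeR).

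A mirrored change would have the size of the siRNA difference with the opposite sign. That size is an estimate the genes were chosen on, with its own SE, so it is set beside the plasmid interval as a description and not as a test. For GNPDA1 the mirror value was -0.81 (SE 0.092) beside a lower bound of -0.11, and for NAA38 it was 1.22 (SE 0.16) beside an upper bound of 0.37. For FAM155B it was -2.38 (SE 0.38) beside a lower bound of -1.71, values that come close once the error of both is allowed for. The signs of both comparisons were opposite in TOX2, FAM155B, NAA38 and PLEKHA2 and alike in GNPDA1 and G0S2, and the 95% interval of every plasmid difference included 0. Smaller opposite changes within the intervals were not detectable with 3 libraries per group. SH3KBP1 counts did not pass the test in the libraries labelled upCIN85. The study reports that full-length CIN85 was overexpressed in upCIN85 cells, with the protein shown by western blot. Those protein data were not analysed here.

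**Figure D3:**
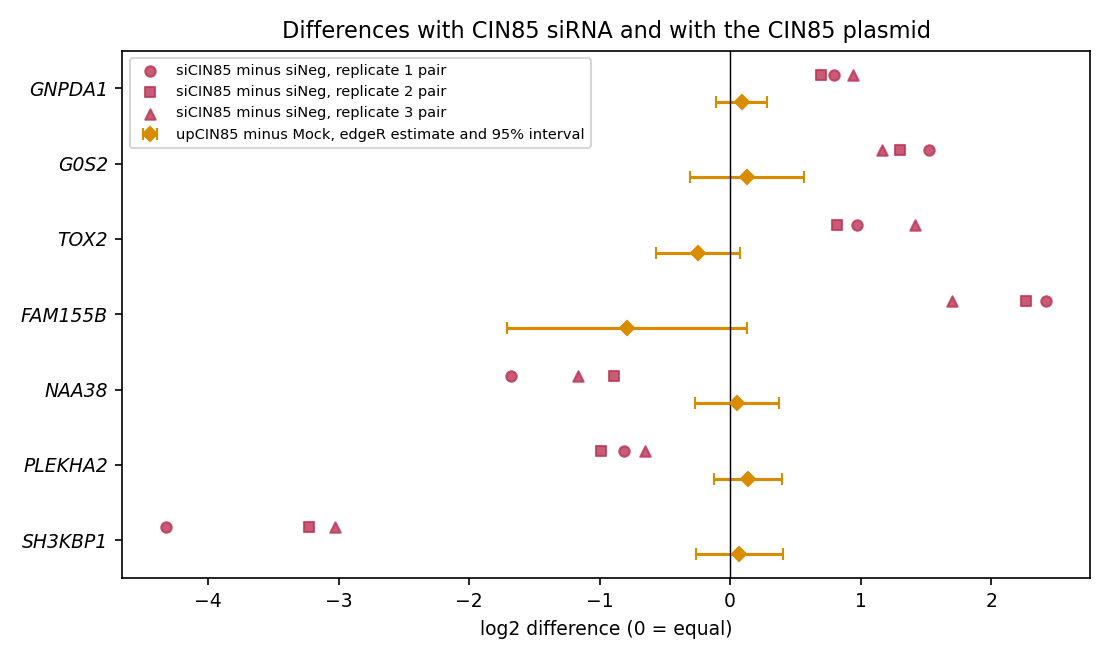
log2 differences (horizontal axis) of the 6 genes and SH3KBP1, with the 3 same-numbered siCIN85 minus siNeg pairs as red points and the edgeR estimate of upCIN85 minus Mock with its 95% interval in orange. All 3 siRNA points of each gene lie on one side of 0, while every orange interval includes 0.

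Whether siRNA off-target effects contributed to the change of any of the 6 genes was not tested. The sequences of the siRNAs were not used here, and the table holds 1 mix of 3 siRNAs against CIN85, without a second, independent mix or a rescue. With the siRNA, SH3KBP1 fell to 8.77% of siNeg. In the libraries labelled upCIN85, 0 of the 6 genes were called, which is near the share of 1.23% over all genes tested. SH3KBP1 was not called there either (log2FC 0.070, adjusted P = 0.887 in edgeR).

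Of the genes beside or overlapping the 6 on the chromosome, RNF14, LAMB3, JPH2, CHD3, TMEM88 and TACC1 were tested, and none passed with the siRNA. Over all genes tested 1.04% passed, so a lack of calls among so few genes is near that share and says little. The other neighbouring or overlapping genes had too few counts to be tested or, as with both neighbours of FAM155B, were not analysed here. RNF14, whose nearest end is 1458 bases from GNPDA1, had a log2FC of -0.079 (adjusted P = 0.859 in edgeR) with the siRNA. NAA38 overlaps CHD3 (log2FC 0.037, adjusted P = 0.894 in edgeR), CYB5D1 (0 to 1 counts) and AC104581.4 (3 to 9 counts), and TMEM88, 586 bases away, had a log2FC of 0.15 (adjusted P = 0.789 in edgeR). TACC1, before PLEKHA2, had a log2FC of -0.12 (adjusted P = 0.585 in edgeR), and HTRA4, 255 bases after it, had 0 to 1 counts. JPH2, after TOX2, had a log2FC of -0.11 (adjusted P = 0.797 in edgeR), and LAMB3, before G0S2, 0.37 (adjusted P = 0.463 in edgeR). An antisense gene over G0S2, AL031316.1, was not tested and had 1 to 2 counts in siNeg and 4 to 9 in siCIN85. The strand setting of the counting is not given in the sources used here, so reads of overlapping genes on opposite strands cannot be told apart.

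To place the 6 genes in their pathways, 66 partner genes were listed, of which 62 were in the table and 50 were tested. Only PLIN2 passed an adjusted P of 0.05 in either comparison. Over all genes tested 1.04% passed with the siRNA and 1.23% with the plasmid, so this count is near the background. The lists were chosen with earlier results of these data known. In the siRNA comparison 28 of the 50 lay above siNeg and 22 below it. Their median log2FC was 0.015, against -0.0052 over all genes tested.

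Among the 11 hexosamine genes tested beside GNPDA1, 0 passed the test in either comparison (edgeR, with 1 at an unadjusted P under 0.05 in each). Over all genes tested, 15.7% had an unadjusted P under 0.05 with the siRNA and 14.5% with the plasmid, and the counts of the lists are to be read against these shares. In the siRNA comparison 7 lay above siNeg and 4 below it (median log2FC 0.019). GNPDA2, the paralog with the same activity, had 29.7 ± 0.924 CPM (SD, n = 3) in siNeg and 27.5 ± 3.59 CPM (SD, n = 3) in siCIN85. UAP1L1, related to the enzyme that makes UDP-N-acetylglucosamine, had a log2FC of 0.85 (SE 0.22) with an adjusted P of 0.0741 in edgeR. The adjusted P was 0.0321 in edgeR with the replicate block in the siRNA groups only.

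Among the 11 N-terminal acetyltransferase genes tested beside NAA38, 0 passed in either comparison (edgeR, with 0 at an unadjusted P under 0.05 with the siRNA and 1 with the plasmid). The median log2FC in the siRNA comparison was 0.0034. NAA30, the catalytic subunit of NatC, had a log2FC of -0.091 (SE 0.10, 95% interval -0.31 to 0.13), and NAA35, its scaffold, one of -0.015 (SE 0.095, 95% interval -0.21 to 0.19). The difference between these subunits and NAA38 was not tested, since NAA38 was chosen on this comparison.

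Among the 10 lipid droplet genes tested beside G0S2, 8 lay above siNeg and 2 below it in the siRNA comparison (median log2FC 0.17), and 1 passed. Over all genes tested, 6168 lay above siNeg and 6374 below it, and 1.04% passed. In the list, 2 genes had an unadjusted P under 0.05 with the siRNA and 1 with the plasmid (edgeR). The gene that passed was PLIN2, which coats lipid droplets, at 191 ± 19.8 CPM (SD, n = 3) in siNeg and 295 ± 11.3 CPM (SD, n = 3) in siCIN85. Its log2FC was 0.62 (SE 0.12, adjusted P = 0.0253 in edgeR), higher in 3 of 3 siCIN85 libraries than in any siNeg library. The call was lost without siNeg replicate 1 (adjusted P = 0.119), siNeg replicate 2 (0.109), siCIN85 replicate 1 (0.128) or siCIN85 replicate 3 (0.0974, all in edgeR). PNPLA2, the lipase that G0S2 inhibits, had a log2FC of 0.18 (SE 0.19, adjusted P = 0.688 in edgeR), and ABHD5, its coactivator, 0.17 (SE 0.18, adjusted P = 0.695 in edgeR). DGAT2, which makes triglyceride, had 3 to 8 counts in siNeg and 10 to 19 in siCIN85 (adjusted P = 0.146 in edgeR).

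The relatives of TOX2 were mostly too low to test, TOX having 1 to 15 counts and TOX3 having 0 to 2. TOX4 was at 130 ± 4.64 CPM (SD, n = 3) in siNeg and 145 ± 23.8 CPM (SD, n = 3) in siCIN85. Its log2FC was 0.16 (SE 0.12, adjusted P = 0.541 in edgeR). NALCN, the channel that FAM155 proteins accompany, had 2 to 13 counts and was not tested either. FAM155A, the paralog of FAM155B, had a log2FC of -0.26 (SE 0.14, adjusted P = 0.386 in edgeR) with the siRNA, where FAM155B was higher. With the plasmid FAM155A was at 36.1 ± 3.20 CPM (SD, n = 3) against 53.4 ± 1.49 CPM (SD, n = 3) in Mock, a log2FC of -0.57 (SE 0.14). Its adjusted P was 0.0512 in edgeR and ranged from 0.0024 to 0.173 over the alternatives. It was 0.0349 in the fit of these 6 libraries alone, 0.0157 in DESeq2 and 0.0529 in DESeq2 with the replicate block. It was 0.119, 0.171 and 0.132 without Mock replicates 1, 2 and 3, and 0.140, 0.0440 and 0.173 without upCIN85 replicates 1, 2 and 3 (edgeR).

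Among the 16 genes of PI(3,4)P2 metabolism and TAPP partners tested beside PLEKHA2, 0 passed in either comparison (edgeR, with 0 at an unadjusted P under 0.05 with the siRNA and 3 with the plasmid). With the siRNA 6 lay above siNeg and 10 below it (median log2FC -0.14). PLEKHA1, the paralog, had a log2FC of -0.28 (SE 0.16, 95% interval -0.61 to 0.056), beside -0.83 (SE 0.14) for PLEKHA2. The difference between the paralogs was not tested.

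**Figure D4:**
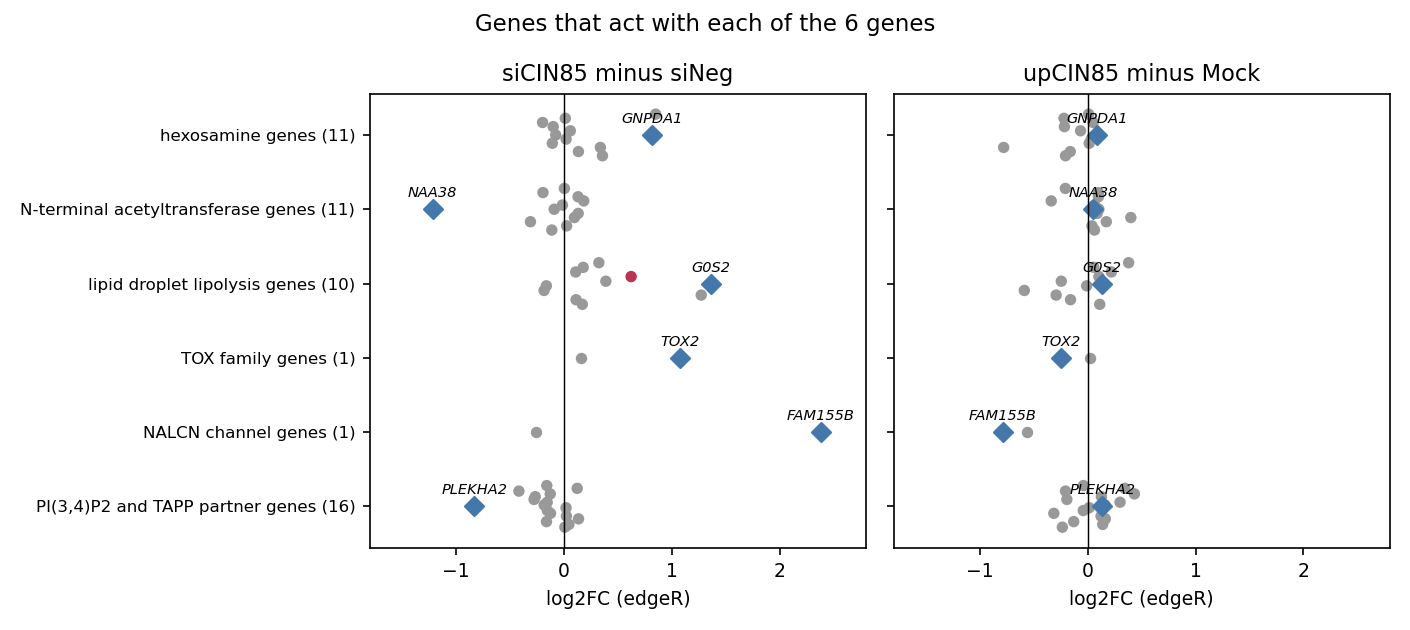
edgeR log2FC (horizontal axes) of the 6 genes (blue diamonds) and of the tested genes of each partner list (points, red for the adjusted P under 0.05 of PLIN2), with siCIN85 minus siNeg in one panel and upCIN85 minus Mock in the other. With the siRNA 5 of the 6 diamonds lie outside the range of their list, which is 1 gene for TOX2 and FAM155B. GNPDA1 (0.81) lies just under UAP1L1 (0.85), and G0S2 (1.36) lies just above DGAT2 (1.27), a gene of 3 to 19 counts. The 6 genes were chosen on the siRNA comparison, so their distance from the lists there follows from the choice. With the plasmid the diamonds lie among or near their lists.

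The genes with the most similar profile over the 12 libraries were found by the root mean square (RMS) difference of log2 CPM, each gene centred on its own mean. For PLEKHA2 the nearest was VANGL1 at 0.096, then FAM172A at 0.146, where a flat profile would differ from that of PLEKHA2 by 0.435. For GNPDA1 the nearest were TOMM34 (0.135) and HIST1H3H (0.141), against 0.384 for a flat profile. For TOX2 the nearest of all tested genes was GNPDA1 (0.179), then GALR2 (0.180). NAA38 was nearest to DERL1 (0.227) and FAM45A (0.228), against 0.516 for a flat profile. G0S2 was nearest to AC090409.1 (0.318) and SFMBT2 (0.347), and FAM155B to DGAT2 (0.523) and AC090409.1 (0.533), at distances that include the counting error of low counts. These neighbours also differed between siCIN85 and siNeg, TOMM34 by a log2FC of 0.79, VANGL1 by -0.87 and DERL1 by -0.92, since likeness to the 6 genes over these libraries is largely likeness in that comparison.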

How the data were processed

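RNA of 12 HOS libraries (4 groups of 3, groups and replicate numbers from the labels) was made into libraries with a QuantSeq 3′ kit with molecular identifiers. The authors deposited raw counts per Ensembl gene, not normalized. Their processing notes name FastQC, cutadapt 4.3, STAR 2.7.3a, Picard 2.25.6, featureCounts of Subread 2.0, MultiQC 1.10.1 and GRCh38. The annotation, strand setting and any collapsing of identifiers are not given in the sources used here. The study's methods speak of biological replicates in general, and whether these libraries came from separate cultures is not given in the sources used here, so P-values measure the spread between these libraries, which may be technical.

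Gene names came from GENCODE release 29 (95 of 25141 IDs unmatched). In R 4.3.3, edgeR 4.0.16 fitted a mean per group to all 12 libraries, after filterByExpr (minimum count 10, minimum total 15) and TMM, with the two-sided quasi-likelihood F test and Benjamini-Hochberg adjustment over 12542 genes. The SE is the absolute log2FC over the square root of F, and intervals are 95% intervals from it. CPM for likeness had a prior count of 2. The study tested with DESeq2, run here (version 1.42.0) as an alternative, as were a fit of 6 libraries, RLE normalization, other filters, a replicate block and each library left out. An exact permutation test of 3 against 3 cannot go below 0.1 and was not used.

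Over genes, the deviations from group means correlated between siNeg and siCIN85 libraries of the same number (r = 0.353, 0.269 and 0.446 for the 3 numbers). The numbers may pair them. Libraries of different numbers were not compared directly, but deviations from a group mean cancel within that group. Positive values for the same number thus leave negative covariances, on average, for different numbers. The main fit used no pairing, and the replicate block was an alternative. For Mock and upCIN85 r was 0.326, 0.227 and 0.0989, which does not reach 0.1 in every pair. No 2 libraries of a group agreed within sampling noise (chi-square per degree of freedom 4.93 to 10.2). The scripts were tested on simulated counts.

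The 6 genes and the partner lists were chosen with earlier results of these data known. The other genes named are SH3KBP1, direct partners or paralogs, partner genes past an adjusted P of 0.05, chromosomal neighbours, the 2 tested genes of most similar profile for each of the 6, and markers of HOS. UAP1L1 was named after its values were seen.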

Additional observations from a re-analysis of the deposited data

How the results depend on the processing

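The 6 genes kept their direction with the siRNA under all 20 alternatives, or 19 for FAM155B. That gene dropped out when at least 10 counts were required in every library. Since the siRNA groups did not overlap, there was little room for a change of direction. In upCIN85 against Mock 0 of the 6 genes were called under any alternative. Without upCIN85 replicate 2 the plasmid log2FC changed sign in G0S2 (-0.10), NAA38 (-0.044), SH3KBP1 (-0.011) and PLIN2 (-0.069), none of them called. With 1 library left out it ran from -0.10 to 0.29 in G0S2, from -0.044 to 0.11 in NAA38, from -0.011 to 0.15 in SH3KBP1 and from -0.069 to 0.19 in PLIN2. Counts of called genes moved far more, and the cause was not tested. In upCIN85 against Mock 154 genes were called, against 281 in the fit of 6 libraries, 637 without a filter on low counts, 319 with DESeq2 and 282 with DESeq2 and the replicate block on 6 libraries. In siCIN85 against siNeg 131 were called, against 50, 617, 297 and 319 under the same settings. With the replicate block in edgeR the counts were 1035 and 968. With the block in the siRNA groups only, chosen after seeing the data, they were 545 and 429. Of the partner genes 1 was called, against 2 in the fit of 6 libraries, 3 without a filter and 7 with the replicate block. The count was 3 with the block in the siRNA groups only and 3 with DESeq2. The block changed no call of the 6 genes, and RLE normalization moved none of these counts by over 1.5 times.

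With 1 library left out, the called genes ranged from 25 to 260 in upCIN85 against Mock, from 9 to 362 in siCIN85 against siNeg, and from 0 to 2 among the partner genes. The first count was 89, 34 and 46 without Mock replicates 1, 2 and 3, 74, 260 and 25 without upCIN85 replicates 1, 2 and 3, and 240 without siNeg replicate 3. The second was 17 and 13 without siNeg replicates 1 and 2, and 9, 362 and 14 without siCIN85 replicates 1, 2 and 3. The partner count was 0 without siNeg replicate 2 and 2 without siNeg replicate 3, upCIN85 replicate 2 or siCIN85 replicate 2. Depth limits FAM155B most, with 6 to 23 counts in each library outside siCIN85.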
